A study of Rattus norvegicus with 16 samples.

Results

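The left ventricle of spontaneously hypertensive (SH) rats after inhalation of diesel exhaust (DE) was compared with that of SH rats that breathed filtered air, over all 15866 probe sets of the array that interrogate rat transcripts. The comparison uses 8 of the 16 arrays of the series, those whose titles give the SH strain with diesel exposure (SH-DE, 4 arrays) or with air exposure (SH-air, 4 arrays). The other 8 arrays hold Wistar Kyoto (WKY) rats, the normotensive strain related to SH rats, under the same treatments (WKY-air and WKY-DE, 4 arrays each). They enter the same model, so their spread is part of the error behind every SH standard error and p, and their values are given where the response of SH rats is set against theirs. The question was whether the hypertensive heart changes its gene expression when DE is inhaled.

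All rats were males, 12 to 14 weeks old at purchase by the study's methods. They were then acclimatized and exposed, and hearts were taken 1 day after the last exposure, so the rats were older at sampling. SH-DE rats inhaled DE whole body at a particle mass of 2.0 mg/m3 on 5 days per week for 4 weeks. Exposure lasted 6 h each day by the sample labels, while the study's methods state a shorter daily exposure. SH-air rats were kept in a chamber with clean air on the same schedule. The exposure was to whole exhaust, gases included, so particles and gases cannot be told apart. The methods give a separate chamber for each exposure level, so chamber and exposure cannot be told apart either. Each array is 1 rat (biological replicates by the methods), and RNA came from left ventricle with septum. Expression is given as intensity, the linear signal that Microarray Suite computes from the probes of a probe set, and differences are given as log2 fold changes of intensity after an offset of 16.1 was added to every value. This offset pulls the fold changes of dim genes toward 0.

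SH rats develop high blood pressure as they mature and carry a thickened left ventricle. DE is a mixture of carbon particles, polycyclic aromatic hydrocarbons, metals and gases. Its polycyclic hydrocarbons are ligands of the aryl hydrocarbon receptor, a transcription factor that partners with Arnt and induces xenobiotic-metabolizing enzymes, with Cyp1a1 as its most used indicator gene. Inhaled particles are also known for inflammation of the lung, release of neutrophils from the marrow, oxidative stress and activation of the stress hormone axis.

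Median intensity ranged from 173 to 197 in SH-air and from 185 to 194 in SH-DE, and the ratio of the 3′ to the 5′ control probe set of Gapdh from 1.23 to 1.41 and from 1.17 to 1.31. The same ratio for actin was 1.37 to 1.64 in SH-air and 1.30 to 1.77 in SH-DE, with its highest value of all 16 arrays in SH-DE replicate 3. Of 18 ventricular cardiomyocyte genes listed, 17 were measured, which means only that the array holds a probe set for each. Their summed intensity was 409509 to 435669 in SH-air and 336687 to 403342 in SH-DE. The purity of the labelled tissue was not tested. SH-DE replicate 3 also stood apart in atrial markers. Myl7, the atrial regulatory light chain, was 33.5, 154, 33.4 and 75.0 in the 4 SH-air arrays and 94.2, 1443, 7876 and 187 in the 4 SH-DE arrays, so that SH-DE replicate 3 and, less so, replicate 2 gave far higher signal of this gene than the rest. Myl4, the atrial essential light chain, gave 101, 743, 2534 and 146 and Sln, sarcolipin, gave 92.4, 422, 2668 and 9.59 in SH-DE. Over the 10 measured atrial genes the summed intensity was 25745 to 38199.7 in SH-air and 24259 to 46337 in SH-DE. Without SH-DE replicate 3 the log2 fold changes of Myl7, Myl4 and Sln were 2.03, 0.85 and 0.13, in place of 3.18, 1.70 and 1.29. For genes over 0.2 in size whose log2 fold change shrank by over 1.5 times without that array, the value without it is also given.

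No probe set differed between SH-DE and SH-air rats by limma at an adjusted p under 0.05 with an unadjusted p under 0.01 (0 of 15866, 0.0%). At an unadjusted p under 0.05 there were 977 probe sets (6.16%, where 5% are expected of a comparison without differences), of which 513 were higher and 464 lower in SH-DE. The two-sided exact permutation test over the 8 SH arrays cannot meet this rule, since the smallest p it allows is 0.0286. It gave 648 probe sets at an unadjusted p under 0.05, and the smallest p after adjustment was 0.700. The next p this test allows is 0.0571. A comparison without differences would thus give it a share of about 0.0286 of the probe sets, not 5%. Differences of at least 1.5-fold were present in 492 probe sets upward and 513 downward, and of at least 2-fold in 67 and 80. Standard errors on the log2 scale had a median of 0.21, and with 4 arrays per group differences of that order were not detectable gene by gene. Much larger ones could be missed too, since Cyp1a1, at a log2 fold change of 2.03 (SE 0.29), was not called.

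**Figure D1:**
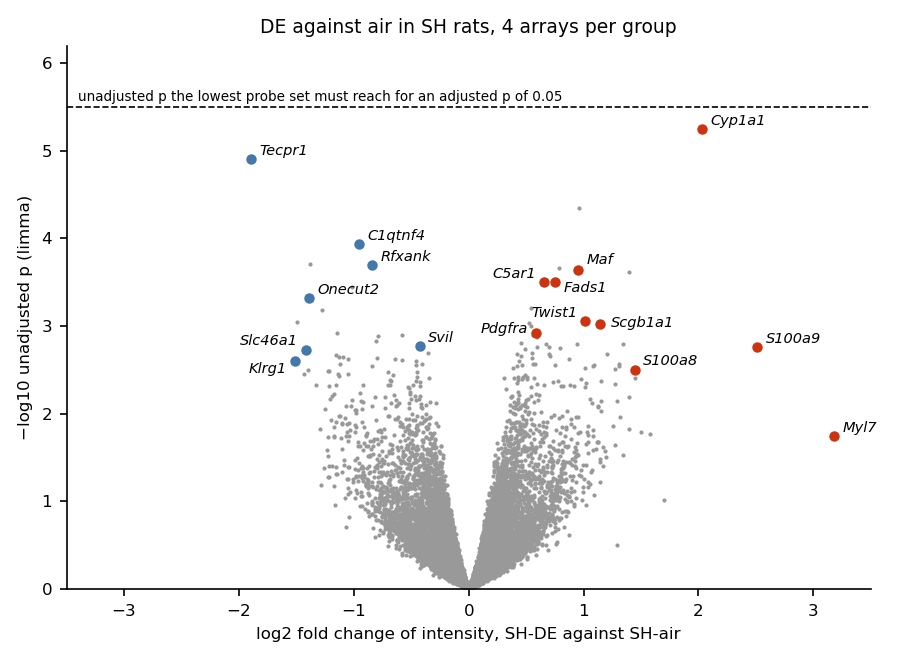
Log2 fold change of intensity in SH-DE against SH-air rats (x axis) and −log10 of the unadjusted limma p (y axis) of 15866 probe sets, with named genes in red where higher and in blue where lower in SH-DE. Every point lies under the dashed line, and Cyp1a1, with an adjusted p of 0.0897, comes nearest to it.

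The arrays did not group by exposure. Each SH array correlated with the other arrays of its own group (mean r 0.958 to 0.963 across probe sets) about as well as with those of the other group (0.957 to 0.963), and the first 3 principal components held 18.2%, 16.3% and 14.8% of the variance. The spread of the log2 fold changes over all probe sets was 0.30 (SD) in SH rats and 0.42 in WKY rats.

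Cyp1a1, the cytochrome P450 that oxidizes polycyclic hydrocarbons, had the lowest p of all probe sets. Its intensity was 13.6, 18.0, 32.3 and 25.7 in the SH-air arrays and 68.8, 159, 271 and 118 in the SH-DE arrays. All 4 SH-DE arrays lay above all 4 SH-air arrays, and SH-air lay near the offset, at the dim end of the array. The group means were 22.4 ± 8.28 and 154 ± 86.2 (SD, n = 4), a ratio of 6.88, and the log2 fold change was 2.03 (SE 0.29, 95% interval 1.40 to 2.66, limma adjusted p = 0.0897). The gene stayed short of the threshold, and the call depended on the fit. Its limma adjusted p was 0.0162 with the replicate number as a block, 0.0424 with an intensity trend, 0.0440 with array weights, and 0.00602 without SH-DE replicate 1, the lowest of the exposed arrays. It was 0.184 after quantile normalization and 0.532 when the 8 SH arrays were fitted alone. Without SH-DE replicate 3, which had the highest Cyp1a1 and the highest atrial signal, the log2 fold change was 1.73 and the adjusted p 0.132.

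In WKY rats the same probe set was 128, 158, 189.6 and 139 under air and 152, 163, 179 and 104 under DE, with a log2 fold change of −0.045. All 8 WKY arrays thus lay within the range of the SH-DE arrays and above every SH-air array. The difference between the DE effects of the strains was 2.08 (SE 0.42) and missed the threshold (limma adjusted p = 0.142).

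The other members of the aryl hydrocarbon receptor list gave no matching pattern. Of the 16 genes listed, 10 were measured, Cyp1a1 among them, and 0 were called. The median log2 fold change of the 10, Cyp1a1 included, was −0.053, against 0.0056 over all 10411 genes. Cyp1b1, a sister enzyme of Cyp1a1, was 257, 252, 193 and 225 in SH-air and 247, 252, 144 and 204 in SH-DE. Tiparp, a poly(ADP-ribose) polymerase that the receptor induces and that dampens it, was 722, 641, 517 and 533 and 549.6, 643, 695 and 730.4. Nqo1, the quinone reductase, was 657, 657, 451 and 633 and 579.9, 576, 418 and 820.4. In each of these genes the groups overlapped fully, with log2 fold changes of −0.14, 0.12 and −0.025, and their 95% intervals (−0.55 to 0.26, −0.18 to 0.41 and −0.41 to 0.36) lay within a factor of 1.5. Cyp1a2 (−0.22, SE 0.48) and Aldh3a1, an aldehyde dehydrogenase (0.39, SE 0.40, and 0.050 without SH-air replicate 3), were too variable for such a bound. The receptor itself, Ahr, was 0.12 (SE 0.39, and −0.36 at its other probe set), its partner Arnt −0.19 (SE 0.26), Nfe2l2, the regulator of antioxidant genes, −0.081 (SE 0.18) and Fmo1, a flavin monooxygenase, −0.15 (SE 0.14).

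**Figure D2:**
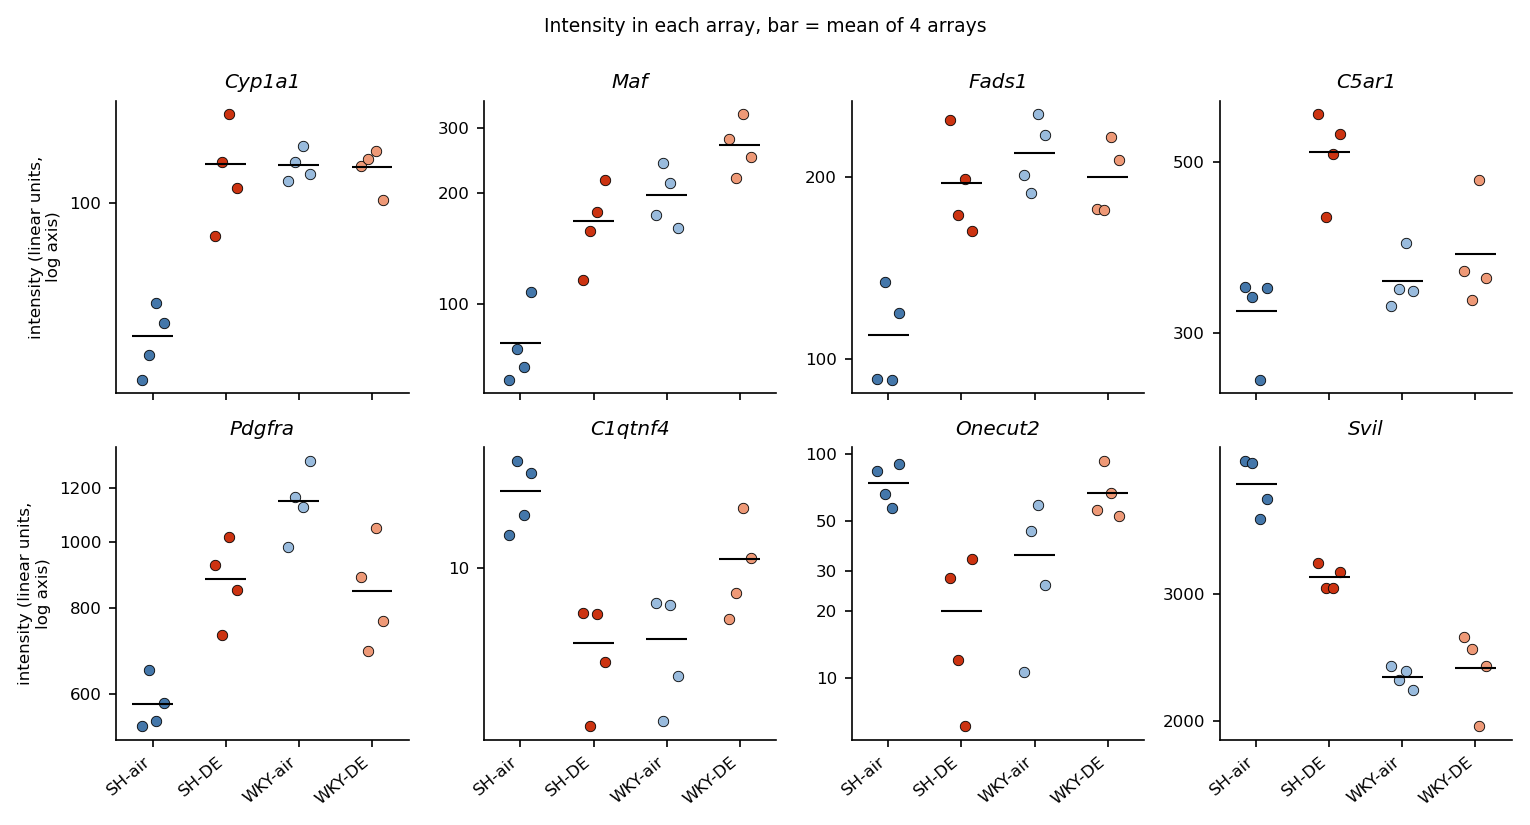
Intensity (linear units on a log axis) of 8 genes in each of the 16 arrays, with points for single rats and bars for the mean of 4. Cyp1a1, Maf, Fads1, C5ar1 and Pdgfra are higher, and C1qtnf4, Onecut2 and Svil lower, in every SH-DE array than in every SH-air array, while none was called.

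The second lowest p belonged to a probe set of Tecpr1, a lysosome-associated protein, at 31.6, 54.7, 97.3 and 116 in SH-air and 6.67, 5.89, 6.33 and 7.71 in SH-DE (−1.89, SE 0.29, limma adjusted p = 0.0993). The SH-DE values all lay below the offset, and a second probe set for Tecpr1 with higher intensity gave −0.044. The genes next in rank are given as a description, since by the probe set with the highest mean intensity each had a limma adjusted p of at least 0.423. Over all genes, 3.5% were higher and 2.71% lower in SH-DE at an unadjusted p under 0.05, and the 4 SH-DE arrays lay wholly above the 4 SH-air arrays in 2.31% and wholly below in 2.0%. Maf, a basic leucine zipper transcription factor, was 62.0, 75.3, 67.1 and 107 in SH-air and 116, 158, 178 and 217 in SH-DE, with a difference of 0.95 on the log2 scale (SE 0.20). Its other 2 probe sets were dim and gave −0.40 and −0.14, so they did not share the direction. Fads1, the delta-5 desaturase that makes arachidonic acid, was 92.4, 134, 92.2 and 119 and 248, 173, 198 and 162 (0.75, SE 0.16). C5ar1, the receptor of the complement fragment C5a on myeloid cells, was 344, 333, 260.4 and 343 and 576, 424, 512 and 543 (0.66, SE 0.14). In these 3 genes all SH-DE arrays exceeded all SH-air arrays.

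Several genes of this rank had tight groups. Snrpd2, a core protein of the splicing ribonucleoproteins, was 1238, 1189, 1253 and 1099.8 in SH-air and 1789, 1729, 1745 and 1726 in SH-DE (0.54, SE 0.13), and its DE effect in WKY rats had the other sign (−0.40, limma adjusted p = 0.0985). S100a10, the partner of annexin A2, was 781, 969.98, 821 and 749 and 1166, 1125, 1401 and 1173 (0.54, SE 0.13). Nup58, a protein of the nuclear pore, was 143, 147, 128 and 126 and 178, 208, 243 and 187 (0.53, SE 0.13, and −0.17, 0.082 and 0.38 at its dimmer probe sets). The 2 groups lay apart in all of these. Scgb1a1, the secretory protein of airway club cells, was 36.1, 40.1, 73.0 and 19.4 and 110.3, 116, 99.99 and 99.3 (1.15, SE 0.28), dim but apart. Twist1, a transcription factor of mesenchymal cells, was 3.22, 21.2, 3.60 and 5.06 and 54.6, 31.2, 12.5 and 36.3 (1.02, SE 0.24), and here the groups overlapped. Cps1, the mitochondrial carbamoyl phosphate synthetase, had 0.59 (SE 0.15) and Lrch3 0.56 (SE 0.14). Lrch3 was also among the genes called in WKY-DE (0.73, limma adjusted p = 0.0285).

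Many of the genes with lower intensity in SH-DE lay near the offset. C1qtnf4, a secreted protein of the C1q and tumor necrosis factor family, was 14.6, 33.7, 18.2 and 29.5 in SH-air and 6.08, 1.68, 5.99 and 3.47 in SH-DE, in which every array lay below the offset (−0.95, SE 0.18). Rfxank, a subunit of the factor that drives class II histocompatibility genes, was 50.6, 51.6, 47.4 and 47.0 and 12.8, 27.1, 16.5 and 27.1 (−0.84, SE 0.17). Onecut2, a transcription factor, was 83.7, 66.5, 57.5 and 90.3 and 27.9, 12.0, 6.10 and 34.0 (−1.39, SE 0.31, and −0.035 at a dim second probe set). Farther from the offset lay Svil, the actin-binding supervillin, at 4595, 4569.8, 3809 and 4066 and 3316, 3061, 3055 and 3221 (−0.42, SE 0.11), and Arpc4, a subunit of the actin-nucleating Arp2/3 complex, at 1170.2, 1134, 1182 and 1247 and 935, 883, 757 and 859.8 (−0.46, SE 0.13). Both actin regulators had groups that lay apart. A second, dim probe set of Svil gave 0.15.

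The other 7 genes of lowest p on the lower side had log2 fold changes between −0.81 and −1.51. They were Tkfc, a kinase of fructose metabolism (−1.15), Fzd2, a Wnt receptor (−0.81), Slc46a1, the proton-coupled folate transporter (−1.42), Zfp703, a zinc finger cofactor (−1.13), Cldn3, a tight junction protein (−1.09), Sox10, a Schwann cell transcription factor (−1.05), and Klrg1, a receptor of natural killer and T cells (−1.51). Fzd2 and Sox10 were also called lower in WKY-DE (−1.49 and −1.33, limma adjusted p = 0.011 and 0.0361). The groups lay apart in all of the 7 except Slc46a1, whose SH-DE replicate 3 exceeded SH-air replicate 4, at 67.8.

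Among genes whose mean intensity lay above the 40th percentile and whose SH groups did not overlap, the highest log2 fold changes were those of Tdg, the thymine DNA glycosylase, at 36.9, 128, 55.3 and 92.1 in SH-air and 204, 162, 172 and 166 in SH-DE (1.13, SE 0.37), Cdk5rap3 (0.94), Chrna7, the alpha-7 nicotinic receptor (0.87), Agpat3, an acyltransferase of phospholipid synthesis (0.77), Sipa1l1 (0.76) and Fads1. Chrna7 was also called in WKY-DE (1.00, limma adjusted p = 0.0481, but 0.11 after quantile normalization). On the lower side stood Zfp703, Dnaaf1, an assembly factor of ciliary dynein (−0.93), Mef2d, a muscle transcription factor (−0.80, and −0.19 at its other probe set), Got1, the cytosolic aspartate aminotransferase (−0.74), Agpat1 (−0.68) and Crybb3, a crystallin (−0.68). In 5 of these genes the size depended on a single array. Got1 was 14424, 13051, 14970.2 and 12749 in SH-air and 11688, 11471, 3772 and 9161 in SH-DE, and without SH-DE replicate 3 its log2 fold change was −0.36. Without the same array that of Dnaaf1 was −0.37, and without SH-air replicate 4 those of Cdk5rap3 and Agpat3 were 0.41 and 0.49. Without SH-air replicate 2 that of Sipa1l1 was 0.42.

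S100a9 had the highest log2 fold change of any probe set but Myl7. This gene, which encodes a calcium-binding protein stored in neutrophils, was 12.3, 16.9, 66.6 and 5.44 in SH-air and 315, 131, 493 and 55.6 in SH-DE, so that SH-DE replicate 4 lay below SH-air replicate 3 (2.51, SE 0.66, limma adjusted p = 0.628). Its partner S100a8 was 7.76, 4.03, 7.03 and 39.3 and 82.3, 60.7, 82.8 and 29.3 (1.45, SE 0.41, limma adjusted p = 0.628), again with overlap through 1 SH-air array. Of 13 neutrophil markers listed, 7 were measured, 4 above 0 and 3 below, with a median of 0.090 that ranged from −0.16 to 0.29 when 1 array was left out. The log2 fold changes of the other 5 were 0.25 for lipocalin Lcn2, 0.090 for the decoy receptor Il1r2, −0.19 for Mmp9, −0.27 for the chemokine receptor Cxcr2 (−0.071 without SH-DE replicate 3 and 0.16 without SH-air replicate 4) and −0.42 for Mmp8 (−0.26 without SH-DE replicate 2). In bulk tissue more cells of a type and more RNA per cell cannot be told apart. Without SH-DE replicate 3 the values of S100a9 and S100a8 were 2.08 and 1.32. In WKY rats they were 1.26 and 0.057 (1.06 and −0.15 after quantile normalization). The 7 neutrophil genes had a median of 0.96 in WKY rats, with 0 called, and 0.78 after quantile normalization.

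Macrophage genes were measured in 16 of 20 cases, with a median of 0.16 in SH rats and −0.10 in WKY rats, and 0 were called. In SH rats 4 members were higher and 0 lower at an unadjusted p under 0.05, against 3.5% and 2.71% of all genes. These shares over all genes also apply to such counts in the lists that follow. C1qb, a chain of the complement component C1q, was 357, 319.7, 356 and 314 in SH-air and 609, 407, 588 and 427 in SH-DE (0.55, SE 0.15), with the groups apart. Its companion C1qa was 341, 389, 449.9 and 362 and 571, 566, 624 and 378 (0.44, SE 0.15), and C1qc had 0.28 (0.11 without SH-DE replicate 3). Ctss, a lysosomal protease of antigen-presenting cells, was 274, 221, 292 and 239.8 and 339.9, 313, 392 and 327 (0.40, SE 0.15). Members did not all point one way, since Aif1 had −0.82 (−0.46 without SH-DE replicate 2) and Cd68 −0.02. The array medians of the list overlapped, at −0.15 to 0.13 in SH-air and 0.063 to 0.35 in SH-DE on the log2 scale against the SH-air mean.

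Of the 46 of 48 inflammatory mediators measured, 4 were higher and 2 lower at an unadjusted p under 0.05, against 3.5% and 2.71% of all genes. Of the 46, 27 lay above 0 and 19 below, from −1.08 to 2.51, with a median of 0.066. Tlr4, the receptor of endotoxin, was 118, 95.2, 81.8 and 107 in SH-air and 138, 162, 135 and 130.4 in SH-DE (0.44, SE 0.14), with the groups apart. Mast cell genes had a median of −0.17 over 9 members, although Tpsb2, mast cell tryptase, was 22.4, 54.6, 105 and 62.5 and 181, 112, 189.7 and 261 (1.45, SE 0.42). The remaining mast cell genes lay between −0.34 and 0.19. Lymphocyte genes had a median of −0.057 over 16 members, 6 above 0 and 10 below, with log2 fold changes from −0.74 to 0.76. The 1 member at an unadjusted p under 0.05 was the T cell kinase Lck, at 204, 204, 168 and 202 and 285, 206, 282 and 279.6 (0.40, SE 0.17). Interferon-induced genes (−0.012, 17 members) and antigen presentation genes (−0.045, 16 members) stood near the median of all genes. In the latter, RT1-Ba, a class II chain, had 0.55 and −0.22 at its 2 probe sets, and RT1-DMb, of the same pathway, −0.33.

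**Figure D3:**
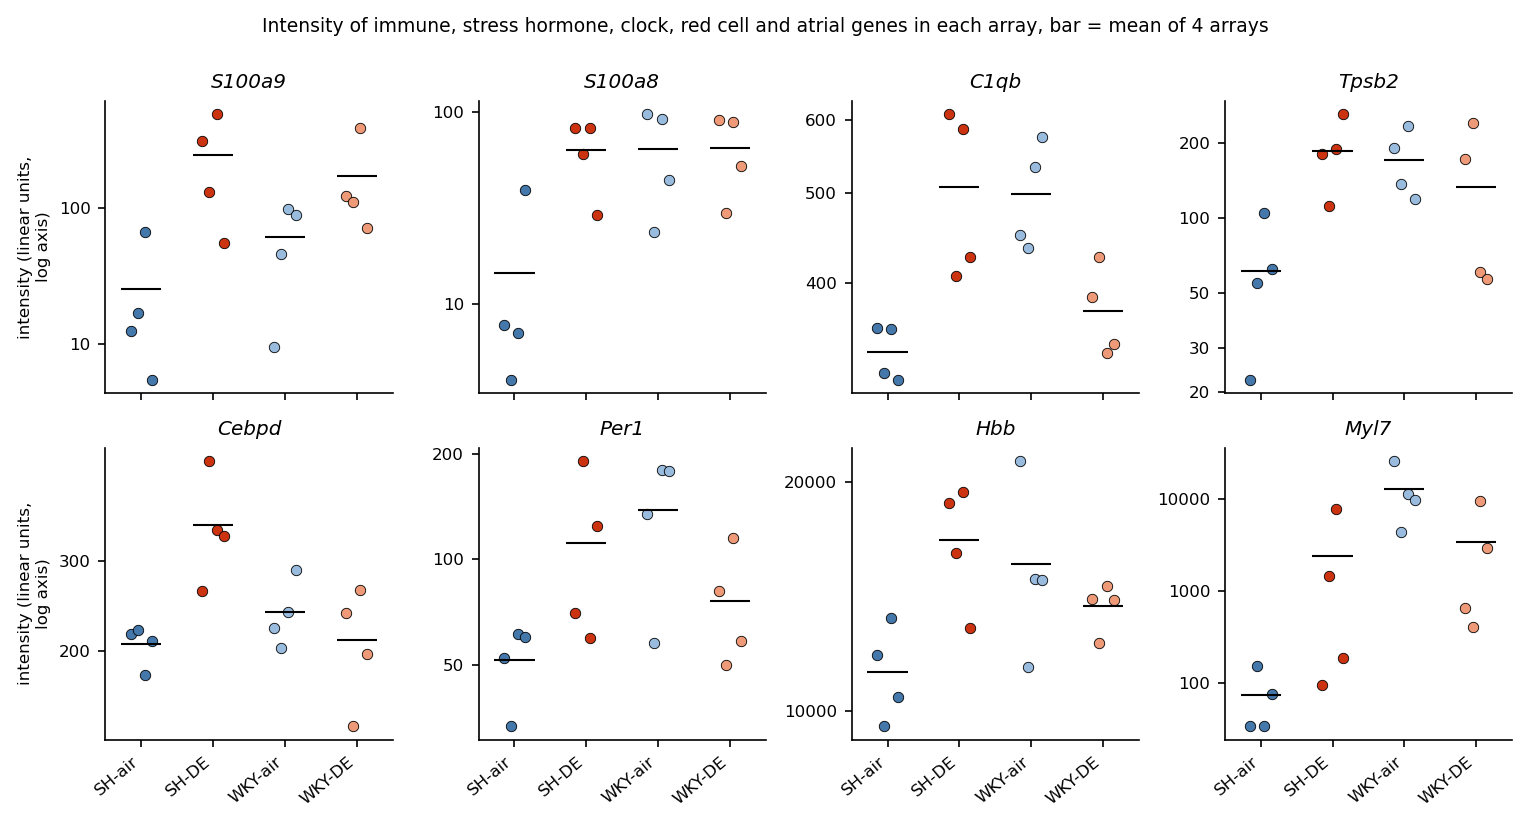
Intensity (linear units on a log axis) of 8 genes of immune cells, stress hormone response, clock, red cells and atrium in each of the 16 arrays, with points for single rats and bars for the mean of 4. C1qb, Tpsb2 and Cebpd are higher in every SH-DE than in every SH-air array, the groups of S100a9, S100a8, Per1 and Hbb overlap, and Myl7 spans from 94.2 to 7876 within SH-DE.

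Fibroblast and matrix genes had medians above 0 in SH rats and below 0 in WKY rats. All 14 fibroblast genes were measured, 12 of them above 0 in SH-DE against SH-air, with a median of 0.16 (−0.40 in WKY rats). Pdgfra, the receptor that marks fibroblasts, was 537, 649, 547 and 582 in SH-air and 928, 732, 1019 and 852 in SH-DE (0.59, SE 0.15). Ddr2, a collagen-binding kinase, was 385, 339.8, 286 and 358 and 453, 433, 540.04 and 472 (0.46, SE 0.12), and Dpt, the matrix protein dermatopontin, 2081, 1966, 2609.9 and 2284 and 2748, 2547, 2775 and 3442 (0.36, SE 0.14). Pdgfra and Ddr2 lay apart between the groups, whereas Thy1, a fibroblast surface protein, had −0.93 (−0.42 without SH-air replicate 4). In WKY rats Pdgfra and Dpt had −0.44 and −0.50, and the strain by exposure interaction of Pdgfra was 1.03 (SE 0.21, limma adjusted p = 0.142).

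Of the collagens, 19 of 21 were measured, 13 above 0 and 6 below, with a median of 0.17 (−0.20 in WKY rats). The type I chains were −0.15 (Col1a1) and 0.08 (Col1a2) and the type III chain Col3a1 0.17, while Col14a1, which binds to fibrils, was 729.9, 614, 622 and 449.6 in SH-air and 973, 901, 855 and 850.2 in SH-DE (0.57, SE 0.16, and 0.13 at its other probe set). Over 55 other matrix and TGF-beta genes the median was 0.15 (−0.25 in WKY rats), with 4 higher and 0 lower at an unadjusted p under 0.05. Mmp14, a membrane metalloproteinase, was 239.96, 252, 262 and 258 and 337, 323, 472 and 277 (0.43, SE 0.17), Fn1, fibronectin, 733, 538, 356 and 498 and 763, 739, 1215 and 525 (0.58, SE 0.23), and Smad4, the shared mediator of TGF-beta signals, had 0.32 (SE 0.14) and −0.099 at its other probe set. Without SH-DE replicate 3 Mmp14 and Fn1 were 0.28 and 0.36. SH-DE replicate 3 had the highest array median in all 3 lists, 0.35 in fibroblast genes, 0.32 in collagens and 0.27 in other matrix genes. Without it the list medians were 0.12, 0.072 and 0.065. In WKY rats Myl7 was 25946, 4415, 11451 and 9718 under air and 657, 404, 9629.5 and 2927 under DE, and 3 of the WKY-DE arrays lay below every WKY-air array. The part of atrial tissue in these values was not tested.

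The sarcomere and energy lists had medians below 0 that depended on scaling. Ventricular cardiomyocyte genes had a median of −0.22, with 16 of 17 below 0, and array medians of −0.059 to 0.034 in SH-air and −0.33 to −0.12 in SH-DE, but the median was −0.0054 with 9 members below 0 after quantile normalization. Of these members 88.2% belong to the brightest twentieth of the probe sets, whose median log2 fold change was −0.053 as deposited and −0.010 after quantile normalization. Myl3, the ventricular light chain, was 29119, 30153, 31259.5 and 31489 in SH-air and 21228, 28017, 23900.3 and 25559 in SH-DE (−0.31, SE 0.14, and −0.059 after quantile normalization). Atp2a2, the calcium pump of the sarcoplasmic reticulum, was 50563, 50567, 48344 and 48445 and 38772, 42259, 42173 and 35560.5 (−0.32, SE 0.14, and −0.063, −0.61 and −0.13 at its dimmer probe sets), and its sign turned to 0.039 after quantile normalization. Ankrd1, a stretch-responsive sarcomere protein, went from −0.32 to −0.059 in the same way.

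Mitochondrial genes were of interest because the study asked about cardiac mitochondria. Of 26 genes of the tricarboxylic acid cycle, 24 lay below 0, with a median of −0.10 that was −0.024 after quantile normalization. Idh2, the mitochondrial isocitrate dehydrogenase, was 37083, 32813, 35044 and 36614 in SH-air and 28097, 31773, 32142 and 27658 in SH-DE (−0.24, SE 0.11), and 0.025 after quantile normalization. Of 65 subunits of oxidative phosphorylation, 1 passed an unadjusted p under 0.05, and the median went from −0.067 to 0.019. That subunit was Ndufs1 of complex I, at 12423, 11091, 11702 and 10699.6 and 9608, 10191, 8131 and 9683 (−0.29, SE 0.11, and −0.25 after quantile normalization).

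Fuel genes kept the sign of their medians under both scalings. Fatty acid uptake and oxidation had a median of −0.11 as deposited and −0.047 after quantile normalization, with 5 of 36 members lower at an unadjusted p under 0.05. Lpl, the lipase that frees fatty acids in capillaries, was 18784, 18708, 21788 and 20239.9 in SH-air and 14134, 16435, 15994 and 17235 in SH-DE (−0.32, SE 0.13, and −0.21 after quantile normalization). Cpt1b, the muscle carnitine palmitoyltransferase, was 7790.1, 6378, 7031 and 7646 and 6176, 6197, 6470.3 and 4684 (−0.30, SE 0.13, and −0.19 without SH-DE replicate 4), and Acadl, the long-chain dehydrogenase, −0.30 (SE 0.11, and −0.16 after quantile normalization). Glycolysis and glycogen genes had a median of −0.16 and −0.089, with 21 of 27 below 0 under either scaling. Their array medians did not overlap as deposited, at −0.065 to 0.049 in SH-air and −0.21 to −0.12 in SH-DE. Pygm, muscle glycogen phosphorylase, had −0.36 (SE 0.16) and −0.45 and −0.33 at its other 2 probe sets, and Eno1, enolase, −0.25 (SE 0.11, and −0.14 without SH-DE replicate 3).

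Ribosomal protein genes had a median of 0.094 over 30 of 66 listed, with 24 above 0, and 0.12 after quantile normalization. In WKY rats the median was −0.32, with 4 members called lower, and −0.16 with 0 called after quantile normalization. Rpl3 was 3022, 2803, 3105 and 2803 in SH-air and 3498, 3715, 4343 and 3572 in SH-DE (0.36, SE 0.12), with the groups apart, and Rps9 had 0.23 (SE 0.10). Proteasome genes had a median of 0.027, and Psmb4, a subunit of its core, 0.30 (SE 0.11).

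Genes of the stress hormone response included a few with separate groups. Cebpd, a transcription factor that glucocorticoids and cytokines induce, was 216, 220.2, 179.9 and 209 in SH-air and 262, 469, 344 and 335 in SH-DE (0.70, SE 0.19, limma adjusted p = 0.628). Its 2 dimmer probe sets gave −0.20 and −0.98 and did not share the direction. Hsd11b1, which regenerates active glucocorticoid, was 891, 851, 948 and 630.5 and 1214, 1123, 1013 and 1046 (0.41, SE 0.15). Over the 16 of 18 genes of this list measured, the median was 0.082. Separate groups were seen in 4 with SH-DE higher and in 0 with SH-DE lower, against 2.31% and 2.0% of all genes. Array medians were −0.053 to 0.049 in SH-air and 0.080 to 0.14 in SH-DE, which do not overlap.

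Clock genes that peak with Dbp and Per1 had a median of 0.23 in SH rats and 0.63 in WKY rats, where 4 of 11 were called higher. After quantile normalization 2 were called there, with a median of 0.57. In SH rats 0 were called and the median without SH-DE replicate 3 was 0.091. Per1, a repressor of the clock that glucocorticoids also induce, was 52.4, 33.4, 61.3 and 60.1 in SH-air and 70.2, 190.3, 59.7 and 125 in SH-DE (0.81, SE 0.35), with SH-DE replicate 3 inside the SH-air range and 0.54 without SH-DE replicate 2. Dbp itself, an output factor of the clock, had 0.46 and Nr1d1, its nuclear receptor repressor, 0.36 (0.091 without SH-DE replicate 3). Genes of the opposite phase had a median of −0.15 over 3 members. Whether the time of day at sampling differed between the groups is not given in the sources used here. Immediate early genes had a median of 0.10 with 23 of 31 above 0, among them Dusp6, a phosphatase of the ERK pathway (0.29, SE 0.14, and 0.043 and −0.26 at its other 2 probe sets).

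Of the stress defence genes 0 were called. Antioxidant and glutathione genes had a median of −0.030 over 32 of 37 measured, with 0 higher and 1 lower at an unadjusted p under 0.05. The lower one was Txnrd2, the mitochondrial thioredoxin reductase, at 829, 715, 1037 and 849.7 in SH-air and 618, 498, 694 and 593 in SH-DE (−0.50, SE 0.16), with the groups apart. Hmox1, heme oxygenase-1, was 208, 262, 164 and 156 and 180.3, 182, 149 and 197, fully overlapping, with a log2 fold change of −0.13 and a 95% interval of −0.59 to 0.34 that excludes a change of 1.5-fold upward. Heat shock proteins had a median of −0.12, and −0.074 after quantile normalization. At an unadjusted p under 0.05, 5 of 26 were lower and 1 higher, against 2.71% and 3.5% of all genes. Hspa1a, the inducible chaperone Hsp70, was 843, 1609.98, 2032 and 963 and 766, 875, 724 and 899 (−0.64, SE 0.22), and the spread lay mostly within SH-air, with −0.42 left without SH-air replicate 3. Among the small heat shock proteins Hspb3 had 0.45 (SE 0.16) and Hspb7 −0.39 (SE 0.17), both overlapping. After quantile normalization they were 0.45 and −0.23.

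Vascular and blood genes were likewise without a call. Vascular tone genes had a median of 0.036 over 41 members. Edn1, the vasoconstrictor endothelin-1, was 130.5, 153, 113 and 92.7 in SH-air and 145, 111, 106 and 94.7 in SH-DE (−0.083, 95% interval −0.50 to 0.34). Arg2, an arginase that competes with nitric oxide synthase for substrate, was 158, 126, 121 and 104 and 80.8, 42.3, 40.9 and 67.9 (−0.98, SE 0.32), with the groups apart, and Gucy1b1, a subunit of the nitric oxide receptor, 0.45 (SE 0.16). Endothelial genes had a median of −0.11, with 2 of 12 lower at an unadjusted p under 0.05, Cldn5, the tight junction protein of endothelium (−0.46, SE 0.17), and Aqp1, the water channel (−0.37, SE 0.16). Coagulation genes had a median of 0.019, with 2 higher at that p, the anticoagulants Pros1 (0.45) and Thbd (0.28).

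Red cell transcripts overlapped between the groups. Hbb, beta globin, was 11875, 9554, 13250.5 and 10437 in SH-air and 18789, 16170.2, 19452 and 12857 in SH-DE (0.57, SE 0.18), and Alas2, the erythroid heme synthase, 352, 328, 555 and 296 and 677, 449, 616 and 413 (0.49, SE 0.21). SH-DE replicates 1 and 3 were highest in both, and S100a9 was highest in the same 2 arrays. The median of the 7 erythroid genes was 0.031, and the part of residual blood in these values was not tested.

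The remaining lists held 0 called members each and had medians between −0.10 and 0.18 over their measured members. They were hypertrophy and wall stress markers (−0.095, and 0.021 after quantile normalization), calcium handling and ion channels (−0.069), hypoxia response (−0.033), the unfolded protein response (−0.024), p53 targets (−0.00014), cell cycle (−0.019), cold-induced RNA-binding proteins (0.18), atrial cardiomyocytes (0.069), smooth muscle and pericytes (−0.095), adipocytes (0.10), epicardium (−0.056) and Schwann cells (0.15). Members of lowest p among these included Kcnj2, the inward rectifier channel of the resting potential (−0.67, and −0.42 without SH-DE replicate 1), Ndrg1, a hypoxia-induced gene (0.41), the cold-induced Rbm3 (0.46, and 0.29 without SH-DE replicate 3), Lipe, hormone-sensitive lipase (−0.70), and Tyms, thymidylate synthase (0.79). In all 40 lists, 804 of 974 listed genes were measured.

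**Figure D4:**
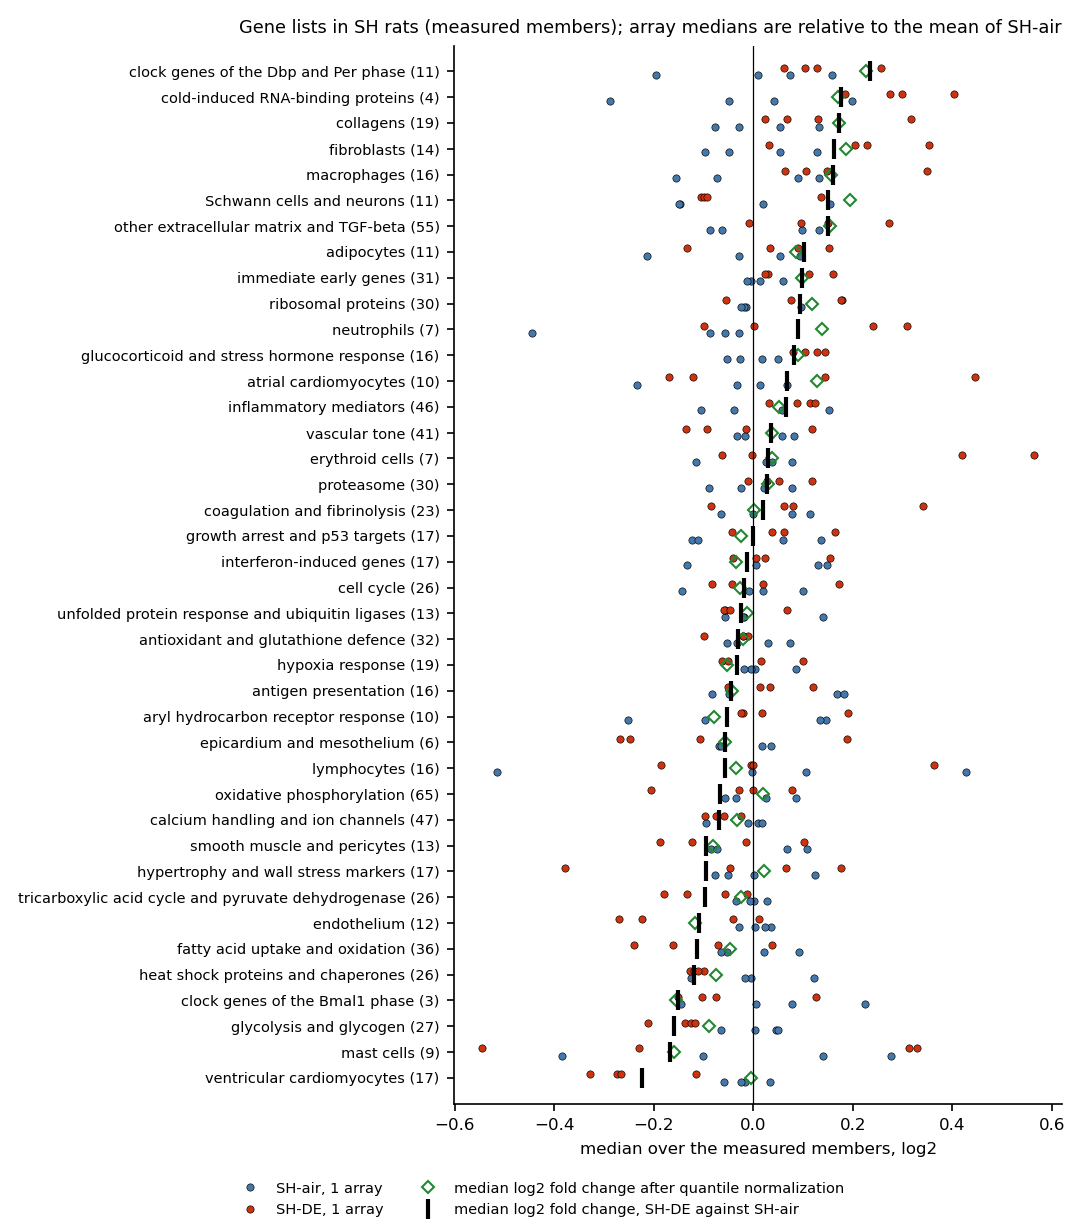
Median over the measured members of each of the 40 gene lists (x axis, log2), for each SH array relative to the SH-air mean (points), as the median log2 fold change of SH-DE against SH-air (black bars) and as the same after quantile normalization (green diamonds). The fibroblast, collagen and macrophage lists lie to the right of 0 under both scalings, while the ventricular cardiomyocyte list moves from −0.22 to −0.0054.

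The comparison in WKY rats has its own exposed and control arrays, but both comparisons take their error from the same 16 arrays. In WKY-DE against WKY-air 298 probe sets were called (1.88%), 217 higher and 81 lower, and 3245 passed an unadjusted p under 0.05, against 977 in SH rats. Across all probe sets the log2 fold changes of the strains correlated with r = 0.028 (rho 0.052), as a description across genes, which are not independent, and 52.4% had the same sign. SH rats shared the sign in 170 of the 298, 130 of the 217 higher and 40 of the 81 lower. In these 217 and 81 probe sets the median log2 fold change of SH rats was 0.064 and 0.0014. Of the 298, 37 (12.4%) passed an unadjusted p under 0.05 in SH rats, against 6.16% of all probe sets, 28 with the same sign and 9 with the opposite one. The number called in WKY rats depended on scaling. Median intensity was 178 to 192 in WKY-air and 209.1 to 216 in WKY-DE, and the median log2 fold change over all probe sets was 0.098. After quantile normalization, which took this median to 0.0057, 91 probe sets were called, 44 higher and 47 lower.

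**Figure D5:**
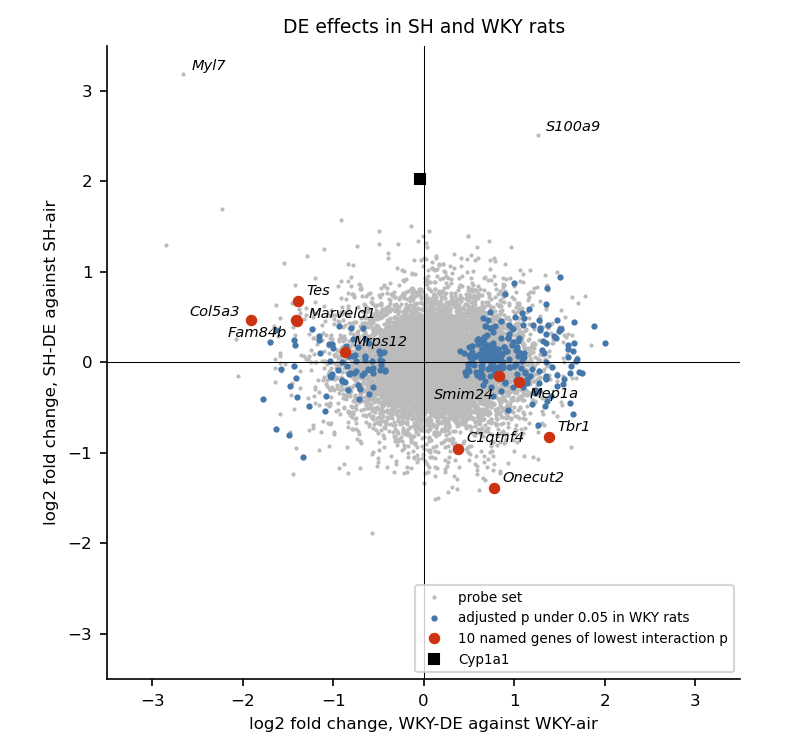
Log2 fold change of DE against air in WKY rats (x axis) and SH rats (y axis) for 15866 probe sets, with those called in WKY rats in blue and the 10 named genes of lowest interaction p in red. Of the 298 blue points, 28 also passed an unadjusted p under 0.05 in SH rats with the same sign and 9 with the opposite sign, and Cyp1a1 lies at 2.03 in SH and −0.045 in WKY rats.

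The difference of the DE effects between strains was tested by the interaction, in which 1 probe set of 15866 was called (0.0063%), 5 more had an adjusted p under 0.1, and 1976 (12.5%) passed an unadjusted p under 0.05. The called gene was Fam84b. Its intensity was 12.7, 5.05, 13.8 and 10.001 in SH-air and 21.3, 29.4, 21.9 and 10.2 in SH-DE, and 57.3, 44.8, 46.9 and 46.5 in WKY-air and 7.03, 6.96, 6.72 and 14.0 in WKY-DE. The WKY groups lay far apart and the SH groups overlapped near the offset, so that the difference of 1.86 (SE 0.24, limma adjusted p = 0.02) rested on a fall in WKY rats (−1.40) beside 0.46 in SH rats.

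The next genes in the interaction had the same form. Col5a3, a minor fibrillar collagen, was 13.9, 13.8, 14.9 and 15.8 in SH-air and 21.2, 18.4, 50.5 and 21.8 in SH-DE, with 0.47 in SH and −1.91 in WKY rats. Mrps12, a mitochondrial ribosomal protein, had 0.11 and −0.87, Marveld1 0.47 and −1.41, and Tes, a focal adhesion protein, 0.67 and −1.39. The second probe set of Marveld1 gave −0.43 in SH rats, and Col5a3 had 0.25 in SH rats without SH-DE replicate 3. Col5a3, Mrps12, Marveld1 and Tes each had a limma interaction adjusted p of 0.077 and were called lower in WKY-DE. After quantile normalization that adjusted p was 0.0185, 0.0407, 0.0407 and 0.0185 in the same order. On the other side Smim24 had −0.15 in SH and 0.83 in WKY rats, and Mep1a, a meprin protease, −0.21 and 1.05, both called higher in WKY-DE (interaction adjusted p = 0.101 and 0.107). Tbr1, a transcription factor, had −0.83 (−0.50 without SH-DE replicate 1) and 1.38. In C1qtnf4 (−0.95 and 0.38) and Onecut2 (−1.39 and 0.78) the SH value was the larger of the pair in size, with interaction adjusted p of 0.123 and 0.142 by limma.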

How the data were processed

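RNA of the left ventricle with septum of 16 rats, 4 per group, was hybridized to Affymetrix Rat 230A arrays. The deposited table gives 1 linear intensity per probe set and array, which the authors computed with MAS5 (version not given in the sources used here) and scaled to a trimmed mean of 500. The RMA values of the study were not used here. The labels give 6 h of exposure a day and the methods 4 h.

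After 57 control probe sets were set aside, 15866 of 15923 remained. An offset of 16.1, the intensity at the 10th percentile over probe sets and arrays, was added to each value, and the log2 was taken. One linear model of the 4 group means over 16 arrays was fitted with limma 3.58.1 in R 4.3.3 (12 residual and 2.68 prior degrees of freedom), with Benjamini-Hochberg adjustment over 15866 probe sets. The call rule asked for both an unadjusted p under 0.01 and an adjusted p under 0.05. The calculation was tested on simulated data, and precision is limited by the number of arrays.

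Gene names come from the platform annotation, in which 12783 have 1 gene, 312 several and 2771 none listed, with 12748 symbols updated by Entrez identifier. A gene is represented by its probe set of highest mean intensity (10411 genes). Named are the 12 genes of lowest p in each direction, the 6 per direction with the largest log2 fold change among genes above the 40th percentile of intensity with separate groups, the 5 per direction of lowest interaction p, up to 3 members of lowest p of each of 40 gene lists (27 of pathways, 13 of cell types), genes called under an alternative, the aryl hydrocarbon receptor genes, the atrial markers, and Hmox1 and Edn1. Other list members and second probe sets were chosen after their values were seen. The comparison and the lists were chosen with earlier results of these data known.

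Alternatives were the SH arrays alone, the replicate number as a block, array weights, quantile normalization, a stricter adjusted p of 0.01, an offset of 62.5 (the 25th percentile) or of 1, a fit without the 40% of probe sets of lowest intensity, robust moderation with a trend on intensity, 1 probe set per gene, an exact permutation test, leaving out each array in turn and, added after seeing the data, leaving out both DE replicates numbered 3. Replicate numbers were not treated as pairs in the main model.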

Additional observations from a re-analysis of the deposited data

Results flagged for a closer look

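In 232 groups of 4 arrays examined, 17 held an array far from the other 3, where chance gives about 5%. Among SH-air arrays these were replicate 3 with a low C5ar1 (260.4), Lck (168), Nqo1 (451) and Rest (1.35), replicate 4 with a low Cdk5rap3 (29.4) and a high S100a8 (39.3), and replicate 2 with a low Sipa1l1 (34.5) and a high Kcnj2 (139.95) and Twist1 (21.2). Among SH-DE arrays they were replicate 3 with a high Col5a3 (50.5) and Srsf5 (1455) and a low Dnaaf1 (16.4) and Lipe (196), replicate 4 with a low Cpt1b (4684), replicate 2 with a low Lck (206), and replicate 1 with a high Dscam (97.6) and Rest (13.1), all as intensities. Fam84b was listed because its DE effect differed between the strains, by 1.86 on the log2 scale (limma adjusted p = 0.02).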

How the results depend on the processing

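The count of 0 called probe sets in SH-DE against SH-air held under the offsets of 1 and 62.5, quantile normalization, the filter on dim probe sets, the SH arrays alone, 1 probe set per gene, and the removal of both DE replicates numbered 3. The stricter threshold and the exact permutation test could only give 0. The count was 1 with an intensity trend (Cyp1a1), 2 with array weights (Cyp1a1 and Tecpr1), and 0 to 3 when 1 array was left out. The 3 were Cyp1a1, Dscam and Opcml without SH-DE replicate 1. Without SH-air replicate 1 there were 2 (Tecpr1 and Amelx), and without SH-air replicate 3 (Rest) or WKY-air replicate 3 (Tecpr1) there was 1. The filter removed Cyp1a1 itself. With the replicate block 1 was called (Cyp1a1, limma adjusted p = 0.0162) and the interaction had 0. Same-numbered SH arrays deviated with correlations of −0.017, −0.028, 0.038 and 0.020. The highest of each SH-air array with an SH-DE array of another number were 0.046, 0.041, 0.045 and −0.0016. Whether the numbers mark a shared exposure day was not tested. By the study's methods SH-air and SH-DE rats were in different chambers. The cause of the changes in the counts was not tested either.

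The interaction count of 1 was 0 with an offset of 1, at an adjusted p under 0.01 and without both DE replicates numbered 3, 2 with the filter and with the trend, 4 with the higher offset, 5 with 1 probe set per gene, 6 after quantile normalization, and 0 to 6 when 1 array was left out. The 298 called in WKY rats were 91 after quantile normalization, 113 with the replicate block, 529 with array weights, 536 with the higher offset, 642 with the filter, 667 with the trend, 96 without both DE replicates numbered 3, 4 at an adjusted p under 0.01, and 43 to 304 when 1 array was left out.

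List medians moved with quantile normalization (tricarboxylic acid cycle −0.024, glycolysis −0.089, ventricular cardiomyocytes −0.0054), with the filter (coagulation 0.23, cold-induced proteins 0.37, erythroid 0.35) and without both DE replicates numbered 3 (clock genes of the Dbp phase 0.091, ion channels −0.12, vascular tone −0.056, Schwann cells 0.0040). With 1 array left out they ranged from 0.0040 to 0.26 (Schwann cells), −0.12 to −0.053 (ion channels), 0.091 to 0.30 (clock), −0.24 to 0.017 (epicardium), −0.016 to 0.34 (erythroid), 0.049 to 0.16 (glucocorticoid), −0.037 to 0.11 (p53 targets), −0.048 to 0.030 (hypoxia), 0.074 to 0.19 (immediate early), 0.023 to 0.16 (inflammatory), −0.16 to 0.29 (neutrophils), −0.20 to 0.036 (smooth muscle) and −0.056 to 0.085 (vascular tone). Quantile normalization also turned the sign of the medians of oxidative phosphorylation (−0.067 to 0.019) and hypertrophy markers (−0.095 to 0.021). The lower medians of fibroblast, collagen and other matrix genes without SH-DE replicate 3 are given above.

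Signs turned in 9 of 116 named genes, none of them called. After quantile normalization Atp2a2 was 0.039 and Idh2 0.025. With 1 array left out the values ranged from −0.090 to 0.36 (Ahr), −0.55 to 0.048 (Cyp1a2), −0.23 to 0.018 (Cyp1b1), −0.19 to 0.020 (Edn1), −0.22 to 0.010 (Hmox1), −0.17 to 0.019 (Nfe2l2) and −0.19 to 0.13 (Nqo1). Without both DE replicates numbered 3 Cyp1b1 was 0.018 and Nqo1 0.13.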

Other observations

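A set of 4 genes called only when 1 array was left out or weighted down lay near the offset in at least 1 SH group, and were picked after their values were seen. Opcml, a neural adhesion protein, was 18.4, 33.5, 27.0 and 27.4 in SH-air and 43.9, 119, 198 and 73.2 in SH-DE at 1 probe set, and its other probe set gave 0.10. Amelx, the enamel protein amelogenin, was 16.7, 5.51, 7.41 and 4.53 and then 21.6, 33.1, 32.2 and 38.5 at 1 of its 4 probe sets, while the others gave 0.10, −0.54 and −0.55. Rest, a repressor of neuronal genes, was 38.8, 41.2, 1.35 and 40.4 in SH-air and 13.1, 4.25, 4.29 and 3.04 in SH-DE, and its other probe set gave −0.08. Dscam, another adhesion protein, was 84.9, 121, 60.8 and 65.8 and then 97.6, 17.7, 13.2 and 10.3. In these genes either a single array crossed the groups or the second probe set gave a smaller difference.

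Among other cell types, Car3, an adipocyte carbonic anhydrase, was 76.0, 86.8, 18.4 and 59.6 in SH-air and 73.1, 86.4, 264 and 234 in SH-DE, with a log2 fold change of 1.17 (SE 0.52, limma adjusted p = 0.796) carried by replicates 3 and 4. Krt18, an epithelial keratin, was 21.5, 165, 14.7 and 108 and 21.8, 19.9, 25.2 and 18.9, in which SH-air replicates 2 and 4 stood above all the rest. Nr2f1, an atrial transcription factor, was 8.74, 6.36, 2.07 and 11.3 and 6.19, 51.0, 13.9 and 29.8. It was highest in SH-DE replicate 2, not in replicate 3 where Myl7 was highest.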
